A study of Mus musculus with 9 samples.

Results

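Lymphoid priming is the low-level transcription of lymphoid genes in haematopoietic stem and progenitor cells before any lineage is fixed. The set described here holds 33 genes of that programme, of early B or T cell development and of the B cell receptor, taken by symbol from the 46626 gene-named rows of a table of RNA levels in sorted mouse bone marrow haematopoietic stem cells (HSCs). By role they were 6 receptors, 4 surface, secreted or cytoskeletal proteins, 8 priming transcription factors, 3 genes of antigen receptor recombination, 6 genes of B lineage commitment and the pre-B receptor, 3 genes of the mature B cell receptor and 3 T lineage factors. The 9 libraries came from C57BL/6 mice in 3 groups of 3, named here as BRL37344 old, saline old and saline young. The drug, BRL37344, activates the β3-adrenergic receptor. BRL37344 old mice, aged 15 to 20 months at implantation, received 2.4 mg per kg per day from subcutaneous osmotic pumps for 12 weeks, with a further pump placed after 6 weeks. Saline old mice of the same age range and saline young mice, aged 2 months, carried pumps with saline. The labels do not say whether each library came from a separate animal or from a pool, so the p-values measure the spread between libraries, which may be partly technical. The surface markers of the sort are not given in the labels.

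As background, FLT3 signalling and the E proteins TCF3 and TCF4 act early in lymphoid specification, together with IKZF1 (Ikaros), SATB1 and SOX4. The interleukin 7 receptor, EBF1 and PAX5 then act in sequence to commit cells to the B lineage, the RAG recombinases and terminal transferase (DNTT) build the antigen receptor genes, and the surrogate light chain of VPREB1 and IGLL1 with CD79A and CD79B carries the first heavy chain to the surface. NOTCH1, with TCF7 and GATA3 among its downstream factors, directs the T lineage.

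RNA from about 2000 sorted cells per library had been amplified and sequenced, and levels are given in RPKM, reads per kilobase of transcript scaled to a fixed library size. Depth was read from the step size of low values. In units of 1000000 reads it was 15.96 to 44.9 in BRL37344 old libraries, 15.3 to 41.4 in saline old libraries and 12.2 to 22.4 in saline young libraries. At 1 RPKM a transcript of 2000 bases rested on 21.9 reads in the shallowest library and on 80.7 in the deepest. The stem cell markers were present throughout: all 12 listed HSC markers passed the filter, and their summed level was 1374 to 1874 RPKM in BRL37344 old, 1451 to 1749 RPKM in saline old and 1606 to 1770 RPKM in saline young libraries. Neutrophil markers, at 12 of 12 tested, differed far more, with sums of 183 to 5766 RPKM in BRL37344 old, 683 to 909 RPKM in saline old and 1087 to 19616 RPKM in saline young libraries. The highest were saline young library 3 and BRL37344 old library 2. The tag that closes each sample's description, HSC-Y-S, is identical in the BRL37344 old, saline old and saline young samples, and what its letters stand for is not stated. It gives no check on the groups, which rest on the titles and on the labelled age and treatment.

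The test took genes with 1 RPKM or more in 3 or more libraries, which were 13516 genes and 21 of the 33 members. Of those 21, 14 reached 1 RPKM in all 9 libraries. The 12 members not tested were Il7r, Ccr9, Ikzf3, Mn1, Rag1, Rag2, Ebf1, Pax5, Igll1, Gata3, Tcf7 and Lef1, of which 10 stayed under 1 RPKM in every library, with a highest value of 0.565 RPKM. By role, 4 of 6 receptors, 6 of 8 priming transcription factors, 1 of 3 recombination genes and 0 of 3 T lineage factors were tested. In a bulk sample, fewer cells with a transcript and less transcript per cell cannot be told apart.

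The promoters of 3 members frame the comparisons: Wfdc17, the member with the smallest p between BRL37344 old and saline old, Ly86, the member with the smallest p between saline old and saline young, and Sox4, the priming factor with the largest difference of level between those groups. Each line gives the 250 bases before the annotated start in RefSeq on build GRCm38.p6, read 5′ to 3′ on the gene's strand. Wfdc17 lies at chr11:83703806-83704055 on the plus strand, Ly86 at chr13:37345095-37345344 on the plus strand and Sox4 at chr13:28953700-28953949 on the minus strand. Capitals mark the E-box CAGCTG and the Ikaros core TGGGAA, or TTCCCA where the core is on the other strand.
Wfdc17: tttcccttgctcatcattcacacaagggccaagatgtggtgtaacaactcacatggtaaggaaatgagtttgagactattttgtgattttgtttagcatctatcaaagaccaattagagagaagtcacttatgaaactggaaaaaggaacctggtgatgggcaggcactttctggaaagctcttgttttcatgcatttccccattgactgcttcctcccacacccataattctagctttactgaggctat
Ly86: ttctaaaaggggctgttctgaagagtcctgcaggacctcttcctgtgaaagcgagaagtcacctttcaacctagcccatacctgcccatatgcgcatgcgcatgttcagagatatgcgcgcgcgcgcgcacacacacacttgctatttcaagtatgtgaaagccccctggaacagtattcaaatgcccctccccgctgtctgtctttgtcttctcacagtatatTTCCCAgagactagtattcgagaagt
Sox4: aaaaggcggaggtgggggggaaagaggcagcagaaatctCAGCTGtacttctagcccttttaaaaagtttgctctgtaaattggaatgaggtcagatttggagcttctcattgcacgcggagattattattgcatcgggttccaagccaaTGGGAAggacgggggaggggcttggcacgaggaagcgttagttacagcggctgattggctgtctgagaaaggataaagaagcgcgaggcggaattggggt
RefSeq windows from 250 bases before to 50 after the start were found for 25 of the 33 members. The E-box CAGGTG was on either strand of at least 1 window in 9 of the 25 members (36%), against 22.6% of all 27025 genes with a window. The other E-box, CAGCTG, was in 7 of 25 members (28%) and 18.3% of all genes, the EBF1 core CCCNNGGG in 3 of 25 (12%) and 15.4%, and TGGGAA in 8 of 25 (32%) and 28.3%. None of these 4 motifs was in the Wfdc17 window. TGGGAA and CCCNNGGG can overlap, and such overlaps were not removed. These matches of letters were not tested.

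The receptors open the programme. Flt3, the receptor tyrosine kinase of early lymphoid and dendritic progenitors, had 78.7, 54.7 and 14.3 RPKM in BRL37344 old libraries 1, 2 and 3, against 28.6, 21.5 and 10.1 RPKM in saline old libraries and 34.2, 27.4 and 30.1 RPKM in saline young libraries. BRL37344 old libraries 1 and 2 stood above every other library and library 3 stood within the saline old range. On the log2(RPKM + 0.5) scale used for all changes below, the difference was 1.09 ± 0.57 (SE) between BRL37344 old and saline old, with an adjusted p of 0.839 in limma, and -0.71 ± 0.57 between saline old and saline young, with an adjusted p of 0.624. Leaving out each library in turn, the first of these was 0.60 to 1.81. It was lowest without BRL37344 old library 1, with an adjusted p of 0.908. It was highest without BRL37344 old library 3, with an adjusted p of 0.126.

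Il2rg, the common gamma chain shared by the receptors for interleukin 7 and other cytokines, was the highest of the 6 receptors by RPKM in every library, and its groups overlapped, at 167 to 301 RPKM in BRL37344 old, 210 to 243 RPKM in saline old and 211 to 228 RPKM in saline young libraries. Its partner Il7r was above the offset in 2 of 9 libraries, at 0.119 RPKM in BRL37344 old library 2 and 0.208 RPKM in saline old library 3. In the other 7 libraries the interleukin 7 specific chain was not detectable at this depth. Gpr171, a G protein-coupled receptor, averaged 111 ± 41.9 RPKM in BRL37344 old, 80.3 ± 12.4 RPKM in saline old and 95.3 ± 9.54 RPKM in saline young libraries (SD, n = 3 each).

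Notch1, the receptor that directs T lineage choice, had 3.85, 0.433 and 2.62 RPKM in BRL37344 old, 3.39, 0.911 and 2.23 RPKM in saline old and 2.57, 1.53 and 6.06 RPKM in saline young libraries. The 3 groups overlapped. Ccr9, a chemokine receptor of thymus-seeding progenitors and plasmacytoid dendritic cells, was at 1.32 and 1.99 RPKM in BRL37344 old libraries 1 and 2, at 0.12 RPKM in saline old library 3 and at the offset in all other libraries. Siglech, a defining marker of plasmacytoid dendritic cells, was at 1.76 RPKM in BRL37344 old library 2 and at the offset in the other 8 libraries. Of the other listed markers of these cells, Klk1 was above the offset in that library alone, at 0.161 RPKM. Cox6a2 was at 0.806 RPKM there and at 1.27 and 0.371 RPKM in saline young libraries 2 and 3. Bst2 was at 81.5 to 104 RPKM and Tcf4 at 41.8 to 57.8 RPKM over all 9 libraries. The part of such cells in the Ccr9 reads was not tested.

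**Figure D1:**
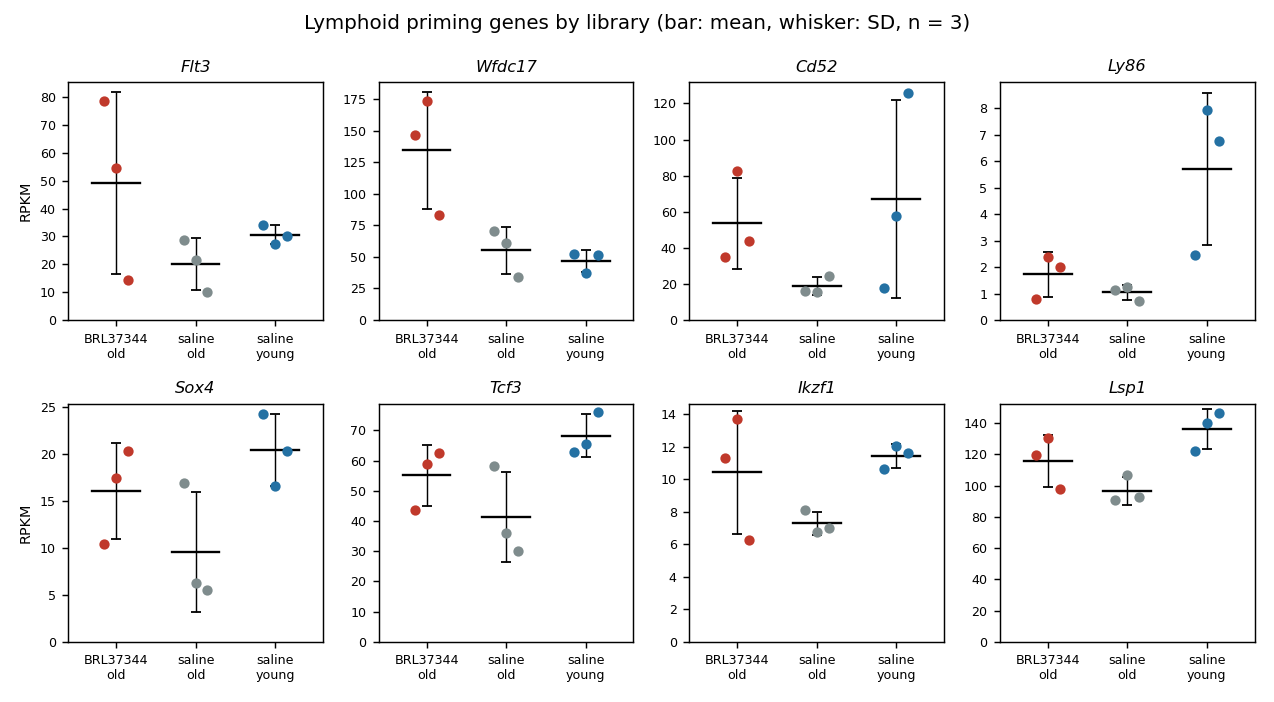
RPKM of 8 members in each library, with BRL37344 old at the left, saline old in the middle and saline young at the right of each panel; points are libraries, horizontal bars are means and whiskers are SD (n = 3). Wfdc17 is higher in all 3 BRL37344 old libraries (82.9 to 174 RPKM) than in any saline library, and Ly86, Tcf3, Ikzf1 and Lsp1 are lower in all saline old libraries than in any saline young library.

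Among the surface, secreted and cytoskeletal members, Wfdc17, a secreted WAP-domain protein, separated BRL37344 old from both saline groups. It had 146, 174 and 82.9 RPKM in BRL37344 old libraries, against 70.3, 60.8 and 34.3 RPKM in saline old libraries and 52.6, 37.1 and 51.1 RPKM in saline young libraries. All 3 BRL37344 old values were above all 6 saline values. The log2 difference was 1.27 ± 0.31 from saline old, with an adjusted p of 0.839, and 1.46 ± 0.31 from saline young, with an adjusted p of 0.0900. The saline groups overlapped, with a log2 difference of 0.18 ± 0.31 and an adjusted p of 0.849.

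Cd52, a small lipid-anchored surface glycopeptide of lymphocytes that is also made by myeloid cells, had 35.1, 82.4 and 43.5 RPKM in BRL37344 old, 16.3, 15.4 and 24.4 RPKM in saline old and 17.5, 57.8 and 126 RPKM in saline young libraries. BRL37344 old was higher than saline old in all 3 libraries, with a log2 difference of 1.43 ± 0.62 and an adjusted p of 0.839. The spread in saline young was wide, and its highest value was in library 3, which also had the highest summed neutrophil markers. Likewise the highest BRL37344 old value was in library 2, which had the highest neutrophil sum of its group. The lowest neutrophil sum of all 9 libraries, 183 RPKM, was in BRL37344 old library 1. Its Cd52 value of 35.1 RPKM was above all saline old values. The difference between saline old and saline young was -1.44 ± 0.62 in all libraries. Without saline young library 3 and BRL37344 old library 2 it was -0.79, and the difference between BRL37344 old and saline old was 1.08. The part of neutrophils in the Cd52 reads was not tested.

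Ly86, the secreted MD-1 protein that pairs with the receptor CD180 on B cells and macrophages, had 0.783, 2.39 and 2.01 RPKM in BRL37344 old, 1.15, 1.26 and 0.725 RPKM in saline old and 2.47, 7.91 and 6.76 RPKM in saline young libraries. Every saline young value was above every value of both old groups. The log2 difference between saline old and saline young was -1.89 ± 0.45, with an adjusted p of 0.0768, the smallest of the members, and that between BRL37344 old and saline young was -1.43 ± 0.45, with an adjusted p of 0.280. Macrophage and monocyte markers ran the same way, with all 10 listed markers tested and 10 of 10 lower in saline old than in saline young by their mean log2 level, and sums of 598 to 866 RPKM in BRL37344 old, 559 to 719 RPKM in saline old and 725 to 1669 RPKM in saline young libraries. Their part in the Ly86 values was not tested. Lsp1, a leukocyte protein that binds actin, had 119, 131 and 97.7 RPKM in BRL37344 old, 90.8, 107 and 92.6 RPKM in saline old and 122, 140 and 147 RPKM in saline young libraries. The saline groups did not overlap for Lsp1, and the log2 difference was small, -0.49 ± 0.13, with an adjusted p of 0.113.

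The 6 tested priming transcription factors had lower means in saline old than in saline young, 6 of 6, with a median log2 difference of -0.65, and for all 6 the BRL37344 old mean was above the saline old mean, with a median of 0.44. None was called in either comparison. Both comparisons use the same saline old libraries, so opposite signs in them are not independent. Sox4, an HMG-box factor needed for B lymphopoiesis, had 10.4, 17.4 and 20.3 RPKM in BRL37344 old, 16.9, 6.22 and 5.47 RPKM in saline old and 24.2, 16.5 and 20.3 RPKM in saline young libraries. Saline old library 1 lay within the saline young range and the other saline old libraries lay below all other libraries. Its log2 difference was -1.22 ± 0.39 between saline old and saline young, with an adjusted p of 0.184, and 0.85 ± 0.39 between BRL37344 old and saline old, with an adjusted p of 0.839.

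Tcf3, which encodes the E proteins E12 and E47, had 43.7, 59.0 and 62.6 RPKM in BRL37344 old, 58.2, 35.9 and 30.0 RPKM in saline old and 62.8, 65.4 and 76.2 RPKM in saline young libraries. As for Sox4, BRL37344 old library 1 was the lowest of its group and saline old library 1 the highest of its group. The saline groups did not overlap, but saline old library 1 was close to the lowest saline young library. The log2 difference between saline old and saline young was -0.77 ± 0.23, with an adjusted p of 0.156. Without saline old library 1 it was -1.04, with an adjusted p of 0.0187, and Sox4 was then at -1.70 with an adjusted p of 0.0175. Tcf4, another E protein gene, varied little, with means of 53.2 ± 2.68 RPKM in BRL37344 old, 46.3 ± 4.27 RPKM in saline old and 54.4 ± 3.84 RPKM in saline young libraries (SD, n = 3 each). Its BRL37344 old and saline old values did not overlap.

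Ikzf1, the Ikaros zinc finger factor, had 11.3, 13.7 and 6.28 RPKM in BRL37344 old, 8.12, 6.73 and 7.02 RPKM in saline old and 10.6, 12.1 and 11.6 RPKM in saline young libraries. The saline groups did not overlap, with a log2 difference of -0.62 ± 0.26 and an adjusted p of 0.303, and BRL37344 old library 3 was the lowest of all 9 libraries. Satb1, a chromatin organiser of early lymphoid genes, had 4.54, 5.36 and 1.08 RPKM in BRL37344 old, 2.698, 2.01 and 1.27 RPKM in saline old and 3.22, 4.77 and 2.54 RPKM in saline young libraries. As for Ikzf1, BRL37344 old library 3 was the lowest of all, and as for Flt3, libraries 1 and 2 were above the saline old range. Bcl11a, needed for lymphoid development, averaged 54.9 ± 4.61 RPKM in BRL37344 old, 48.3 ± 2.48 RPKM in saline old and 49.9 ± 6.61 RPKM in saline young libraries (SD, n = 3 each). Ikzf3 (Aiolos), a factor of later B cells, reached 0.296 RPKM at most, and Mn1, a transcriptional coactivator, 0.00126 RPKM.

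**Figure D2:**
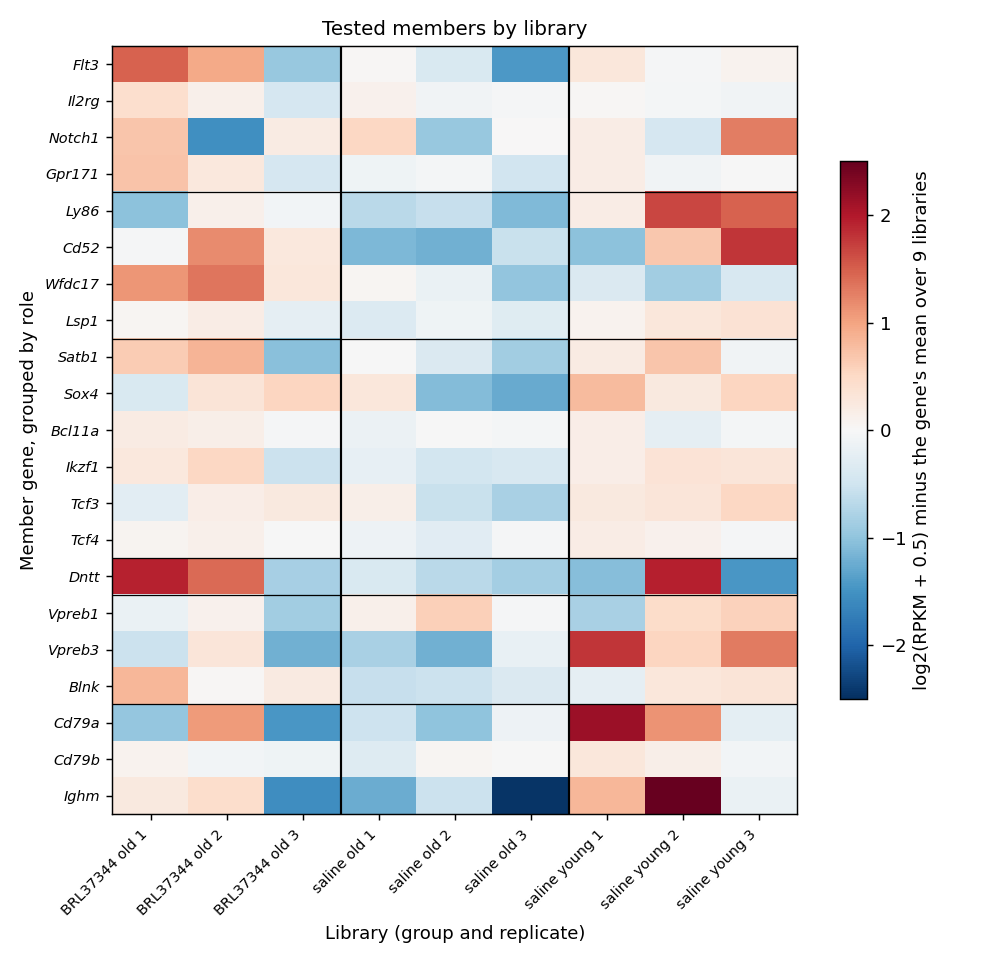
Difference of each tested member's log2(RPKM + 0.5) from its mean over the 9 libraries, with members in rows grouped by role and libraries in columns (BRL37344 old, saline old, saline young from left to right); red is above and blue below the gene's mean. BRL37344 old libraries 1 and 2 are mostly at or above the mean while library 3 is mixed, with 7 of 21 members above the saline old range and 5 below it, and saline old library 3 has the lowest value of 7 members.

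Of the recombination genes 1 of 3 was tested. Dntt, terminal transferase, had 5.23, 3.50 and 0.345 RPKM in BRL37344 old, 0.664, 0.441 and 0.335 RPKM in saline old and 0.220, 5.29 and 0.0478 RPKM in saline young libraries. Only 3 libraries held more than 1 RPKM, of which 2 were BRL37344 old and 1 was saline young, and the other libraries of those groups lay at or below 0.345 RPKM. The log2 difference between BRL37344 old and saline old was 1.47 ± 0.91, with an adjusted p of 0.848. Rag1 was above the offset in 2 libraries, at 0.281 RPKM in saline young library 1 and 0.0184 RPKM in saline old library 2. Rag2 was above it in 4 libraries, with a highest value of 0.287 RPKM in BRL37344 old library 2. In the 3 libraries with more than 1 RPKM of Dntt, Rag1 was at the offset and Rag2 at most at 0.287 RPKM.

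Of the B lineage commitment and pre-B receptor genes, Ebf1 was above the offset in 1 library, at 0.0336 RPKM in BRL37344 old library 2, and Pax5 in none of the 9. Igll1, the lambda-like surrogate light chain, reached 0.0998 RPKM in BRL37344 old library 3 and was at or barely above the offset elsewhere. Vpreb1, its partner, had 1.32, 1.69 and 0.615 RPKM in BRL37344 old, 1.73, 2.58 and 1.498 RPKM in saline old and 0.662, 2.31 and 2.52 RPKM in saline young libraries. The groups overlapped, and reads of Vpreb1 can be shared with its near-identical copy Vpreb2, so its values are uncertain.

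Vpreb3, which assists assembly of the pre-B receptor, had 0.294, 0.911 and 0.0002 RPKM in BRL37344 old, 0.154, 0.0002 and 0.511 RPKM in saline old and 3.48, 1.17 and 2.31 RPKM in saline young libraries, where 0.0002 is the offset of that row. It was the 1 member that passed the filter through a single group, since it reached 1 RPKM only in saline young libraries, so its separation from the old groups was in part a condition of being tested. The log2 difference was -1.94 ± 0.50 between saline old and saline young, with an adjusted p of 0.104, and -1.69 ± 0.50 between BRL37344 old and saline young, with an adjusted p of 0.249. Blnk, an adaptor downstream of the pre-B and B cell receptors, had 2.57, 1.28 and 1.52 RPKM in BRL37344 old, 0.665, 0.705 and 0.859 RPKM in saline old and 0.983, 1.62 and 1.68 RPKM in saline young libraries. Saline old was below every library of both other groups. Blnk reached 1 RPKM in 3 BRL37344 old, 0 saline old and 2 saline young libraries, so its low level in saline old was in part a condition of being tested, and the same holds of Dntt and Cd79a, which also reached 1 RPKM in 0 saline old libraries. The log2 difference was 0.84 ± 0.32 between BRL37344 old and saline old, with an adjusted p of 0.839, and -0.62 ± 0.32 between saline old and saline young, with an adjusted p of 0.408.

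The B cell receptor genes are given apart from the priming genes. Ighm, the immunoglobulin mu heavy chain, had 18.7, 21.4 and 5.01 RPKM in BRL37344 old, 6.36, 10.8 and 2.47 RPKM in saline old and 28.2, 357 and 14.1 RPKM in saline young libraries. All 3 saline young values were above all saline old values, and saline young library 2 stood alone. The log2 difference between saline old and saline young was -3.12 ± 1.18, with an adjusted p of 0.277, and -1.74 with an adjusted p of 0.354 without that library. Between BRL37344 old and saline old it was 1.11 ± 1.18, with an adjusted p of 0.895.

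Cd79a, a signalling chain of the B cell receptor, had 0.248, 2.55 and 0.0354 RPKM in BRL37344 old, 0.519, 0.234 and 0.842 RPKM in saline old and 5.94, 2.68 and 0.743 RPKM in saline young libraries. Its partner Cd79b was even across all 9 libraries, at 41.1 to 47.2 RPKM in BRL37344 old, 35.5 to 46.2 RPKM in saline old and 42.3 to 54.4 RPKM in saline young libraries. The chains of one receptor thus differed in level by RPKM, which is per length, in every library.

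**Figure D3:**
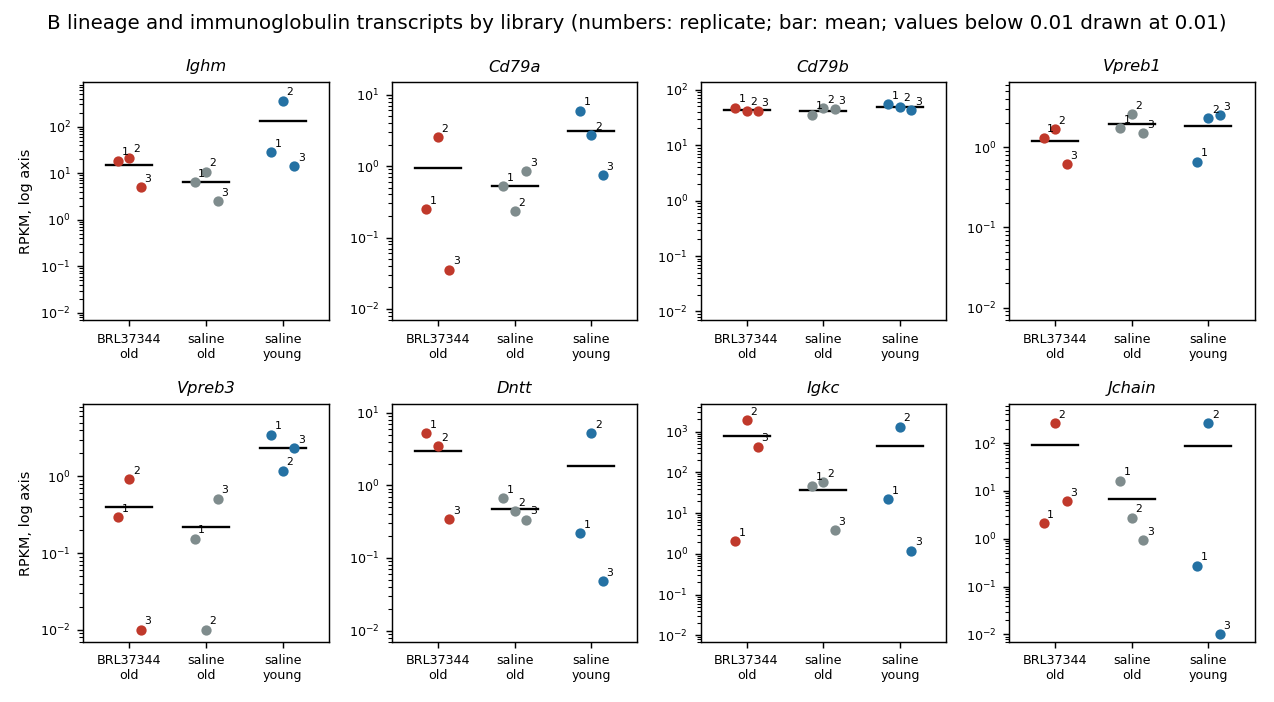
RPKM on a log axis of 6 members and of the immunoglobulin kappa constant gene Igkc and the joining chain gene Jchain in each library, with replicate numbers beside the points and BRL37344 old, saline old and saline young from left to right; bars are means and values below 0.01 are drawn at 0.01. Igkc and Jchain are highest in BRL37344 old library 2 (1909 and 263 RPKM) and in saline young library 2 (1330 and 263 RPKM), and Cd79b is even throughout.

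Transcripts of antibody-secreting cells were read beside these. Igkc had 2.07, 1909 and 426 RPKM in BRL37344 old, 47.9, 57.2 and 3.85 RPKM in saline old and 22.3, 1330 and 1.21 RPKM in saline young libraries. Jchain had 2.09, 263 and 6.16 RPKM in BRL37344 old, 16.3, 2.76 and 0.928 RPKM in saline old and 0.275, 263 and 0.0002 RPKM in saline young libraries. Saline young library 2 held the highest Ighm and Dntt values of all 9 libraries. Dntt was nearly as high in BRL37344 old library 1, at 5.23 against 5.29 RPKM, where Igkc was at 2.07 and Jchain at 2.09 RPKM. The highest Igkc was in BRL37344 old library 2, where Igha, the alpha heavy chain, was also at 358 RPKM. The 13 listed plasma cell and immunoglobulin genes, of which 6 were tested, summed to 194 to 2739 RPKM in BRL37344 old, 140 to 284 RPKM in saline old and 188 to 1754 RPKM in saline young libraries. In saline old libraries most of the sum was Xbp1. That gene had 122 to 181 RPKM in BRL37344 old, 117 to 183 RPKM in saline old and 136 to 229 RPKM in saline young libraries. The 13 mature B cell markers, of which 4 were tested, summed to 57.7 to 72.6 RPKM in BRL37344 old, 57.9 to 69.0 RPKM in saline old and 46.4 to 64.2 RPKM in saline young libraries. Most of that sum was Cd72, a B cell coreceptor, and the called markers had opposite signs. Cd72 had 53.5, 53.1 and 47.3 RPKM in BRL37344 old, 58.4, 47.2 and 47.7 RPKM in saline old and 37.2, 30.4 and 28.3 RPKM in saline young libraries, and it rose in saline old against saline young by 0.67 ± 0.14 on the log2 scale, with an adjusted p of 0.0463 in limma. Tnfrsf13c, the receptor for the survival factor BAFF, had 12.2, 8.48 and 7.94 RPKM in BRL37344 old, 5.71, 6.18 and 6.50 RPKM in saline old and 15.3, 16.7 and 14.8 RPKM in saline young libraries, and it fell by 1.28 in saline old against saline young, with an adjusted p of 0.00957 in limma. Ms4a1, Cd22 and Spib, which were not tested, were highest in saline young library 1, at 4.26, 2.32 and 2.06 RPKM, the library in which Cd79a was also highest. The part of plasma or B cells in the values of Ighm, Cd79a, Ly86, Blnk and Dntt was not tested. In the fit without saline young library 2 and BRL37344 old library 2, no member was called in any comparison. None was called with all 9 libraries either, so that fit is no test of the part of those cells.

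The T lineage factors were close to the floor. Gata3 had 0.00103, 0.523 and 0.287 RPKM in BRL37344 old, 1.49, 0.898 and 0.396 RPKM in saline old and 0.00122, 0.383 and 0.553 RPKM in saline young libraries, and was not tested because a single library reached 1 RPKM. Tcf7 was above its offset in 4 libraries, at 0.119, 0.0196 and 0.0178 RPKM in the 3 BRL37344 old libraries and 0.244 RPKM in saline young library 2. Lef1 was above it in 2 libraries, at 0.185 RPKM in BRL37344 old library 2 and 0.565 RPKM in saline young library 1. The 16 T cell markers, of which Cd4 and Lck were tested, summed to 13.7 to 20.7 RPKM in BRL37344 old, 7.54 to 10.2 RPKM in saline old and 10.8 to 14.1 RPKM in saline young libraries. Lck alone had 7.76 to 11.2 RPKM in BRL37344 old, 6.22 to 8.75 RPKM in saline old and 7.43 to 10.2 RPKM in saline young libraries. Of the defining markers, Cd3e and Cd3g were above the offset only in BRL37344 old libraries 2 and 3, at most at 1.64 and 2.06 RPKM. Trac, the T cell receptor alpha constant gene, was above it in all 3 BRL37344 old libraries, at 0.255, 1.74 and 0.635 RPKM, in all 3 saline old libraries, at 0.615, 0.481 and 0.341 RPKM, and in no saline young library. Trbc2, a beta constant gene, had 0.254, 2.48 and 1.58 RPKM in BRL37344 old libraries, was at the offset in saline old libraries and had 0.334 and 0.453 RPKM in saline young libraries 1 and 3. Cd3d was above the offset in 5 libraries, spread over the 3 groups, with a highest value of 1.006 RPKM in BRL37344 old library 2. Bcl11b was at its offset in every library, to within rounding in saline old library 2.

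Set side by side, saline old against saline young gave 213 called genes of 13516 (1.58%), with a smallest adjusted p over all genes of 1.28e-05, and none of the 21 tested members was called. By unadjusted p under 0.05, limma gave 8 of the 21 members, all lower in saline old (Ly86, Vpreb3, Lsp1, Tcf3, Sox4, Ighm, Ikzf1 and Cd52), against 2032 of all genes (15%). In 7 of 21 members (33.3%) all saline old values were below all saline young values, against 10.9% of all genes, and in 0 members they were all above, against 9.39%. The 7 include Vpreb3 and Blnk, which reached 1 RPKM in no saline old library. The median log2 difference of the members was -0.62, beside -0.02 over all genes tested, with 18 members negative and 3 positive. These counts and medians describe the members that passed the filter and are no test. With all genes above the offset in any library kept, the members' median was -0.24. Without saline young library 1, Cd52 and Ly86 were called, and without saline old library 1, Sox4 and Tcf3 were called. With sample quality weights 5 members were called, all lower in saline old: Ly86, Vpreb3, Lsp1, Tcf3 and Sox4.

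BRL37344 old against saline old gave no called gene of 13516 (0%) in limma, members included, while 762 genes (5.64%) had an unadjusted p under 0.05. Of the members 3 did, all higher in BRL37344 old: Wfdc17, Blnk and Cd52. In 4 of 21 members (19.0%), these 3 and Tcf4, all BRL37344 old values were above all saline old values, against 4.82% of all genes, and in 0 members all were below, against 5.28%. The 4 include Blnk, which reached 1 RPKM in no saline old library, so its separation was in part a condition of being tested. Tcf4 was apart by little, at 50.51 RPKM in the lowest BRL37344 old library and 50.35 RPKM in the highest saline old library. The median log2 difference was 0.43, beside 0.01 over all genes tested, with 19 members positive and 2, Notch1 and Vpreb1, negative. With no filter on low values the members' median was 0.20, and without BRL37344 old library 2 it was 0.23. Without BRL37344 old library 3, 38 genes were called but still 0 members, the smallest adjusted p among the named members being that of Wfdc17 at 0.0875.

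BRL37344 old against saline young gave 104 called genes (0.769%) and no called member, with 1268 genes (9.38%) and 3 members at an unadjusted p under 0.05. Those were Wfdc17, higher in BRL37344 old, and Ly86 and Vpreb3, lower in it. All BRL37344 old values were above all saline young values for 1 member, Wfdc17, against 7.29% of all genes, and below them for 3 members, Ly86, Vpreb3 and Tcf3, against 7.88%. The median log2 difference was -0.15, beside -0.04 over all genes tested, with 7 members positive and 14 negative. That median was 0.01 without BRL37344 old library 3, -0.33 without BRL37344 old library 2, -0.08 without saline young library 2 and -0.05 with no filter on low values. Wfdc17 was called when BRL37344 old library 3 was left out, at an adjusted p of 0.0239, when saline old library 3 was left out, at 0.0376, with sample quality weights, at 0.0225, and when libraries were shifted to the same median, at 0.0451.

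**Figure D4:**
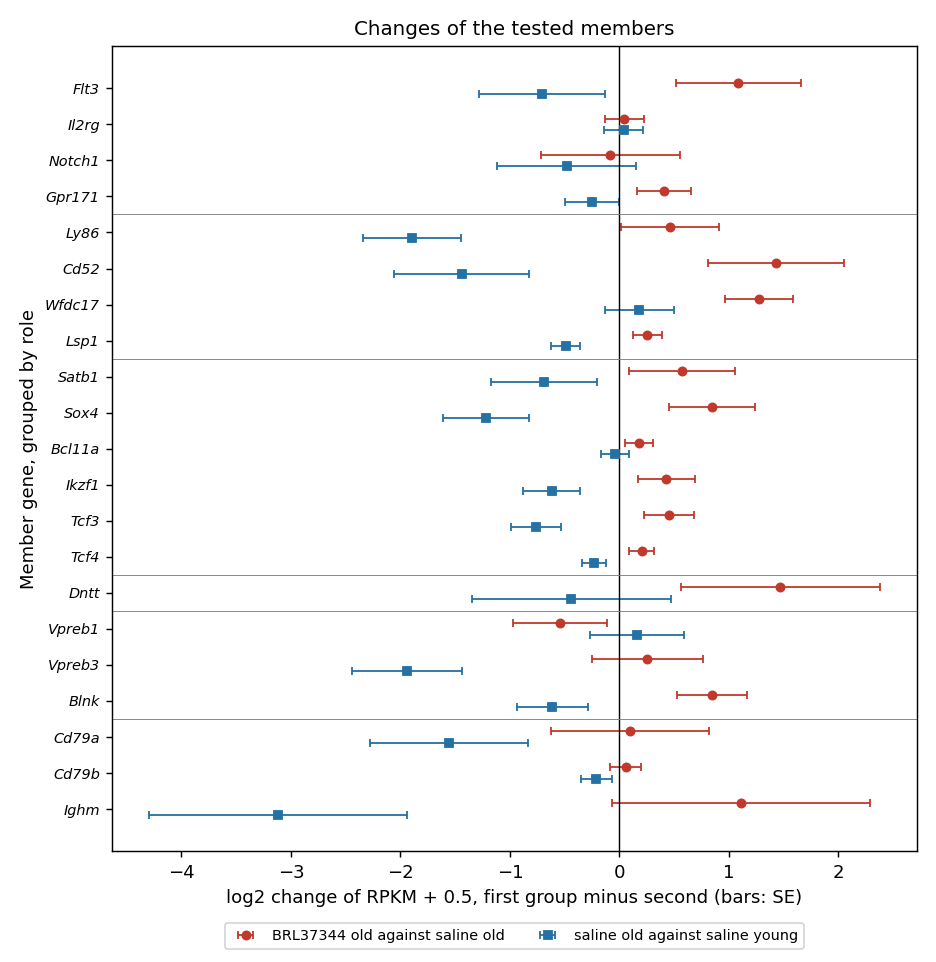
Difference of log2(RPKM + 0.5) with its SE for each tested member, for BRL37344 old against saline old (red circles) and saline old against saline young (blue squares), members grouped by role. Most red points lie above 0 (19 of 21) and most blue points below it (18 of 21), but both use the same saline old libraries and no member passes the adjusted threshold.

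The libraries of one group did not share one level. The mean log2 level of the 21 tested members was 4.004, 4.14 and 3.37 in BRL37344 old libraries 1, 2 and 3, against 3.50, 3.30 and 3.17 in saline old libraries and 3.95, 4.31 and 4.04 in saline young libraries. BRL37344 old libraries 1 and 2 were within the saline young range and library 3 was within the saline old range. This was so of the mean alone, since 9 of the 21 members lay within the saline old range in library 3, 7 above it and 5 below it. Ranked over the 9 libraries, the median rank of the 21 members was 4, 3 and 7 in BRL37344 old, 6, 7 and 7 in saline old and 3, 3 and 4 in saline young libraries, with 1 the highest. The 4 receptors had mean log2 levels of 5.98, 5.11 and 4.76 in BRL37344 old, 5.29, 4.79 and 4.67 in saline old and 5.33, 5.01 and 5.48 in saline young libraries, and the 6 priming factors had 4.41, 4.68 and 4.18 in BRL37344 old, 4.31, 3.87 and 3.76 in saline old and 4.62, 4.57 and 4.53 in saline young libraries. The 3 B cell receptor genes had 3.14, 3.83 and 2.31 in BRL37344 old, 2.66, 2.86 and 2.49 in saline old and 4.44, 5.26 and 3.20 in saline young libraries. For both the priming factors and these 3 genes, BRL37344 old libraries 1 and 3 were below all saline young libraries. The lists differed in BRL37344 old library 2. For the priming factors it was above all saline young libraries, at 4.68 against at most 4.62. For the 3 B cell receptor genes it was above saline young library 3 alone.

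Other genes of the pathway were counted from lists. Of 24 other lymphoid priming factors and markers 21 were tested. Against saline young, saline old had 0 called, 7 lower and 1 higher by unadjusted p, and against saline old, BRL37344 old had 0 called and 4 higher by unadjusted p (Runx1, Foxp1, Cd34 and Cd53). Over all genes tested, 1.58% were called and 15% had an unadjusted p under 0.05 in limma for saline old against saline young, in either direction. For BRL37344 old against saline old these shares were 0% and 5.64%. Runx1, a factor of blood stem cell and lymphoid development, had 10.6, 10.4 and 9.20 RPKM in BRL37344 old, 5.15, 4.41 and 3.27 RPKM in saline old and 8.74, 9.16 and 6.72 RPKM in saline young libraries. The BRL37344 old values were above all others, with a log2 difference of 1.16 ± 0.22 from saline old and an adjusted p of 0.839. Foxp1, a forkhead factor of B cell development, had 35.7, 52.0 and 24.5 RPKM in BRL37344 old, 25.8, 18.9 and 19.0 RPKM in saline old and 40.6, 36.8 and 43.7 RPKM in saline young libraries. Cd53, a leukocyte tetraspanin, had 163, 104 and 101 RPKM in BRL37344 old libraries. It had 86.5, 90.2 and 66.4 RPKM in saline old and 48.2, 43.2 and 64.8 RPKM in saline young libraries. Cd53 was the 1 called gene of that list, higher in BRL37344 old than in saline young by 1.22 ± 0.21 on the log2 scale. Its adjusted p was 0.0308 in limma, where 0.769% of all genes were called. Saline old was above saline young by 0.64 ± 0.21, with an adjusted p of 0.203. BRL37344 old was above saline old by 0.58 ± 0.21, with an adjusted p of 0.839.

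The receptors' ligands and signalling genes gave no call. Of 12 listed, 11 were tested and 0 called in any comparison, and Flt3l, the ligand of FLT3, had 6.71, 7.07 and 8.30 RPKM in BRL37344 old, 5.30, 8.004 and 5.64 RPKM in saline old and 6.28, 8.98 and 5.85 RPKM in saline young libraries. Of 9 E protein partners and inhibitors 8 were tested and 0 called in any comparison. Id1 and Id2, inhibitors of E proteins, had opposite signs against saline young: Id1 had 0.766, 1.94 and 2.69 RPKM in BRL37344 old, 3.74, 3.21 and 2.00 RPKM in saline old and 3.91, 7.01 and 12.6 RPKM in saline young libraries, and Id2 had 44.1, 42.9 and 38.2 RPKM in BRL37344 old, 57.6, 40.8 and 30.1 RPKM in saline old and 28.1, 17.0 and 33.0 RPKM in saline young libraries. Of 8 Notch pathway genes 4 were tested and 0 called. The 4 multipotent progenitor markers, Flt3 among them, were all tested. They summed to 223 to 457 RPKM in BRL37344 old, 233 to 239 RPKM in saline old and 329 to 340 RPKM in saline young libraries. Most of each sum was Cd34, which is also among the listed HSC markers. Cd34 had 185 to 315 RPKM in BRL37344 old, 181 to 191 RPKM in saline old and 242 to 272 RPKM in saline young libraries. Cd48, which is absent from the surface of most HSCs and present on multipotent progenitors, had 10.2, 7.54 and 8.72 RPKM in BRL37344 old, 2.80, 2.27 and 6.20 RPKM in saline old and 12.8, 22.8 and 22.7 RPKM in saline young libraries. Cd48 fell by 2.29 on the log2 scale in saline old against saline young, with an adjusted p of 0.00957 in limma, and its difference between BRL37344 old and saline old, 1.23 ± 0.35, had an adjusted p of 0.839. The part of progenitors in the sorted cells in the values of Flt3, Ikzf1 and the other priming genes was not tested.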

How the data were processed

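RNA of sorted HSCs was amplified with SMART-Seq v4 and made into libraries with Nextera XT, per the labels' protocols. Trim Galore, Partek, STAR 2.5.3a and the build mm10 are named, without their roles, per the submitters' processing notes. The deposited table, named as counts by the authors, holds RPKM values: this was read from the values, which are not whole and step by transcript length. Whether pairs or reads were counted (FPKM or RPKM) is not given. An offset of 0.0001 for each transcript is part of every value. Of 46628 rows, 2 name no gene. The 18 unnamed value columns of another sheet were not used. Depth came from 5547 genes with 1 transcript of at least 1000 bases, of whose values of up to 10 reads 87.9% to 90.0% lay within 0.05 of a whole read.

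From these, limma 3.58.1 in R 4.3.3 was fitted on log2(RPKM + 0.5), a scale that understates changes of low genes, with robust empirical Bayes moderation along a mean-variance trend, in 1 model of 3 groups over 9 libraries with 6 residual degrees of freedom. Genes at 1 RPKM or more in at least 3 libraries were tested, p-values were adjusted by Benjamini-Hochberg over all 13516, and the threshold was 0.05. The script was tested on simulated data. Members given library by library were those called, the 6 with the smallest p in each comparison and landmark genes of each role. Members, lists and tests were chosen with earlier results of these data known. Alternatives covered the pseudocount, filter, scaling, library weights, the replicate number as a block and libraries left out. The numbers were not taken to pair libraries. Same-numbered libraries of different groups correlated at -0.05 to 0.19 in their deviations from group means. Differently numbered ones correlated at -0.16 to 0.13. These ranges overlap and do not settle whether libraries were paired. Irf8 and Hes4 were listed but not analysed here. Promoters came from RefSeq on GRCm38.p6.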

Additional observations from a re-analysis of the deposited data

How the results depend on the processing

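No member was called in any of the 3 comparisons as reported. Sample quality weights gave 5 called members for saline old against saline young and 1 for BRL37344 old against saline young, where a shift to the same median also gave 1. Leaving out each library in turn gave 0 to 2 called members for saline old against saline young, 0 to 0 for BRL37344 old against saline old and 0 to 1 for BRL37344 old against saline young. With the replicate number as a block, 0 members were called in each comparison. Over all genes, calls for saline old against saline young numbered 213, against 1284 with weights, 131 with no filter on low values, 83 without the 2 libraries highest in neutrophil markers and 69 without the 2 highest in immunoglobulin transcripts (chosen after seeing the data). Leaving out each library gave 96 to 591. For BRL37344 old against saline old they numbered 0, against 3 with weights, 2 with only the groups compared, 1 with a pseudocount of 0.1 and 0 to 38 leaving out each library. For BRL37344 old against saline young they numbered 104, against 169 with weights, 39 and 30 without those pairs of libraries and 57 to 162 leaving out each library. The cause was not tested.

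Of 16 named tested members, 11 could be tested under all 21 alternatives, and of these the sign was the same throughout for 10 in saline old against saline young, 10 in BRL37344 old against saline old and 6 in BRL37344 old against saline young. The other 5 (Blnk, Cd79a, Dntt, Vpreb1 and Vpreb3) passed the filter in fewer, 15 at the least. Dntt, Cd79a and Vpreb3 were not tested without the libraries that carry their values, so their signs there are not known. All members that changed sign were uncalled there. In BRL37344 old against saline old, Cd79a was -0.21 with a pseudocount of 0.1, and Notch1 was 0.082 with weights and 0.58 without either pair of libraries. In BRL37344 old against saline young, Cd52 was 0.045 with a shift to the same median, 0.013 with quantile normalization and 0.29 without the 2 libraries highest in neutrophil markers, Satb1 was 0.13 with weights, and Notch1 was 0.56 without the 2 highest in neutrophil markers. Leaving out each library, the ranges were -0.023 to 0.49 for Wfdc17 and -0.29 to 0.40 for Vpreb1 in saline old against saline young, and -0.53 to 0.58 for Notch1, -0.13 to 0.59 for Cd79a and -0.13 to 0.61 for Vpreb3 in BRL37344 old against saline old. In BRL37344 old against saline young they were -0.11 to 1.10 for Flt3, -0.47 to 0.48 for Satb1, -1.01 to 0.10 for Notch1, -0.41 to 0.12 for Ikzf1, -0.76 to 0.64 for Cd52 and -0.0029 to 0.39 for Blnk. At 1 RPKM a transcript of 2000 bases had 21.9 to 80.7 reads, so members under that level are imprecise.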
